A study of Mus musculus with 24 samples.

Results

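The clustered replication-dependent histone genes are the genes of the mouse Hist1, Hist2, Hist3 and Hist4 clusters, which encode the linker histone H1 and the core histones H2A, H2B, H3 and H4. They were taken as the protein-coding entries of the deposited expression table whose symbol begins with Hist1h, Hist2h, Hist3h or Hist4h, which gave 67 genes of 53465. Of these, 54 lie on chromosome 13, 10 on chromosome 3, 2 on chromosome 11 and 1 on chromosome 6. They comprise 6 H1, 18 H2A, 18 H2B, 12 H3 and 13 H4 genes. RNA-seq had been run on 24 libraries of mouse embryonic stem cells, 12 of Atf3 knockout (KO) and 12 of wild-type (WT) cells, with 3 libraries of each genotype at day 0 and at days 3, 6 and 9 of differentiation. Atf3 encodes a stress-inducible transcription factor, and the study asked how its loss affects mesoderm and endothelial cells. The medium given in the labels, with leukaemia inhibitory factor and the inhibitors CHIR99021 and PD0325901, is that of undifferentiated cells. Strain, allele, number of KO clones and the differentiation agents are not stated in the labels used. They do not say whether a group's libraries are separate cultures either, so p-values cover only library-to-library spread, possibly technical.

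Clustered histone genes are transcribed mainly in S phase, when new DNA has to be packed into nucleosomes. Their messages are not spliced and, unlike other mRNAs, mostly end in a conserved stem-loop in place of a poly(A) tail. The stem-loop-binding protein Slbp and the U7 snRNP guide the cut that forms this end. Some of the genes also carry a poly(A) signal further downstream and can give polyadenylated messages in cells that have left the cell cycle. Histone genes outside the clusters, such as H3f3a, H2afz and H1f0, are expressed through the whole cycle and are polyadenylated. Per the labels, RNA was selected here with oligo(dT), which binds poly(A), so a level below is that of the transcripts that came through this selection. Ribosomal RNA also lacks poly(A), and its remaining level was therefore set beside each result, as the sum of 3 rRNA-type genes, Gm42418, Gm23935 and CT010467.1.

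The histone stem-loop was found in the annotated transcript (GENCODE vM21, mm10) of 46 of the 67 genes, against 70 of all 21933 protein-coding genes (0.319%). It is shown for the most abundant gene of each class whose transcript model holds it, and for the 2 genes of the chromosome 11 cluster, because these are the genes the results set against each other. Capitals mark the stem and loop.
Hist1h1c: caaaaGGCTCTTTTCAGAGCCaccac
Hist1h2ap: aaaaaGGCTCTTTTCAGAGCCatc
Hist1h2bg: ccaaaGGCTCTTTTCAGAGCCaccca
Hist1h3c: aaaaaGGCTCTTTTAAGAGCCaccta
Hist1h4a: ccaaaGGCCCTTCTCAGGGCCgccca
Hist3h2ba: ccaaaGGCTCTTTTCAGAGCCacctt
Hist3h2a: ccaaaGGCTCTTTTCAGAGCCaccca
Each consists of a pair of inverted arms around a short loop.

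On mm10 the 7 stem-loops lie on the plus strand at chr13:23739507-23739532 (Hist1h1c, linker histone), on the minus strand at chr13:21833026-21833049 (Hist1h2ap, H2A) and on the plus strand at chr13:23571838-23571863 (Hist1h2bg, H2B). The Hist1h3c stem-loop is on the minus strand at chr13:23745042-23745067, and that of Hist1h4a on the minus strand at chr13:23760795-23760820. Those of Hist3h2ba and Hist3h2a are on the plus strand at chr11:58949344-58949369 and chr11:58955167-58955192. The core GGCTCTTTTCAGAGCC was shared by 26 genes, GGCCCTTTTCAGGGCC by 7 and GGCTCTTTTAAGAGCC by 6. What follows the stem-loop differed more than the stem-loop itself. The annotated transcript of Hist1h2ap ends 3 bases after it and that of Hist1h3c 74 bases after it, whereas that of Hist1h1c runs on for 840 bases and that of Hist3h2a for 1643 bases.

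By the annotated end, 32 genes had the stem-loop and no poly(A) signal (AATAAA or ATTAAA within the last 40 bases), and 17 had a poly(A) signal, 14 of them together with the stem-loop. The other 18 had neither, and 11 of those 18 have a transcript model that covers the coding sequence alone, as for Hist1h2an, Hist2h2bb, Hist1h3i and Hist1h4k. For these 11 the absence of the letters says nothing about the real end. A poly(A) signal stood at the annotated end of 79.0% of all protein-coding genes. Hist1h1c, Hist1h4a, Hist1h4i, Hist1h4j, Hist3h2a and Hist3h2ba are among the 17.

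Promoter windows of 300 bases (250 before and 50 after the start, RefSeq, GRCm38.p6) were matched for 61 of the genes. CCAAT, read on either strand, was present in 52 of the 61 windows (85.2%), against 37.9% of 27025 promoters. It was present in every H1, H2A, H2B and H3 window and in 3 of the 12 H4 windows. TATAAA on either strand was present in 35 windows (57.4%), against 14.2% of all promoters. The H1 motif AAACACA was present in 9 windows (14.8%), 5 of them among the 6 H1 genes, against 7.14% of all promoters. The windows of Hist2h2bb, at chr3:96269450-96269749 on the plus strand, and of Hist3h2ba, at chr11:58948661-58948960 on the plus strand, are shown because these H2B genes changed in opposite directions. Capitals mark CCAAT and TATAAA on either strand.
Hist2h2bb: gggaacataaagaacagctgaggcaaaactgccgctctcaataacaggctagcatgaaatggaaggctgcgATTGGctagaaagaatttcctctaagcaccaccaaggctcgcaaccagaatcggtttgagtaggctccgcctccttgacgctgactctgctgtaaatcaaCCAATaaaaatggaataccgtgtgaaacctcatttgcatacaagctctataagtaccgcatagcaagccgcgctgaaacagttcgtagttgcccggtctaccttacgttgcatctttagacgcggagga
Hist3h2ba: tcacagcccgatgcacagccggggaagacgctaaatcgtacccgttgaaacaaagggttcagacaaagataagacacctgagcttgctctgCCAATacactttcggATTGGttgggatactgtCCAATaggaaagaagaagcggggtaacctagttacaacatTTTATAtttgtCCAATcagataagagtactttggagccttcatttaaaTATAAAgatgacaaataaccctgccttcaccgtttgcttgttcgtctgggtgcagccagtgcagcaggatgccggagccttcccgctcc
Both windows hold CCAAT, and TATAAA is present in the Hist3h2ba window and not in the Hist2h2bb window. A match is a description of letters, not a binding site.

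Depth, as reads recovered from the deposited values, was 7855631 to 25274436 reads per library, of which 4.42% to 45.6% lay in the rRNA-type genes. Clustered histone genes took 2056 to 6301 reads per library, or 0.0121% to 0.0380% of all reads, so the lower genes rest on few reads. WT day 6 replicate 3 stood apart, with the highest rRNA-type share and 4272090 reads outside those genes. Atf3 was lower in KO than in WT libraries at every day with no overlap, the exact permutation test giving its smallest possible p of 0.1 each time. KO day 6 replicate 3 had 4.17 FPKM of Atf3, against at most 0.714 FPKM in the other KO libraries. That value lay above every WT day 0 library (1.15 to 3.06 FPKM), and the same library had the lowest histone sum, 125 FPKM. Stem cell markers of the naive state (Nanog, Esrrb, Zfp42 and others) all fell by day 9 in both genotypes, in 8 of 8 cases each. Many clustered histone genes are near-identical in their coding sequence, so how reads were shared among copies is uncertain, as is their strand, which is not stated.

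**Figure D1:**
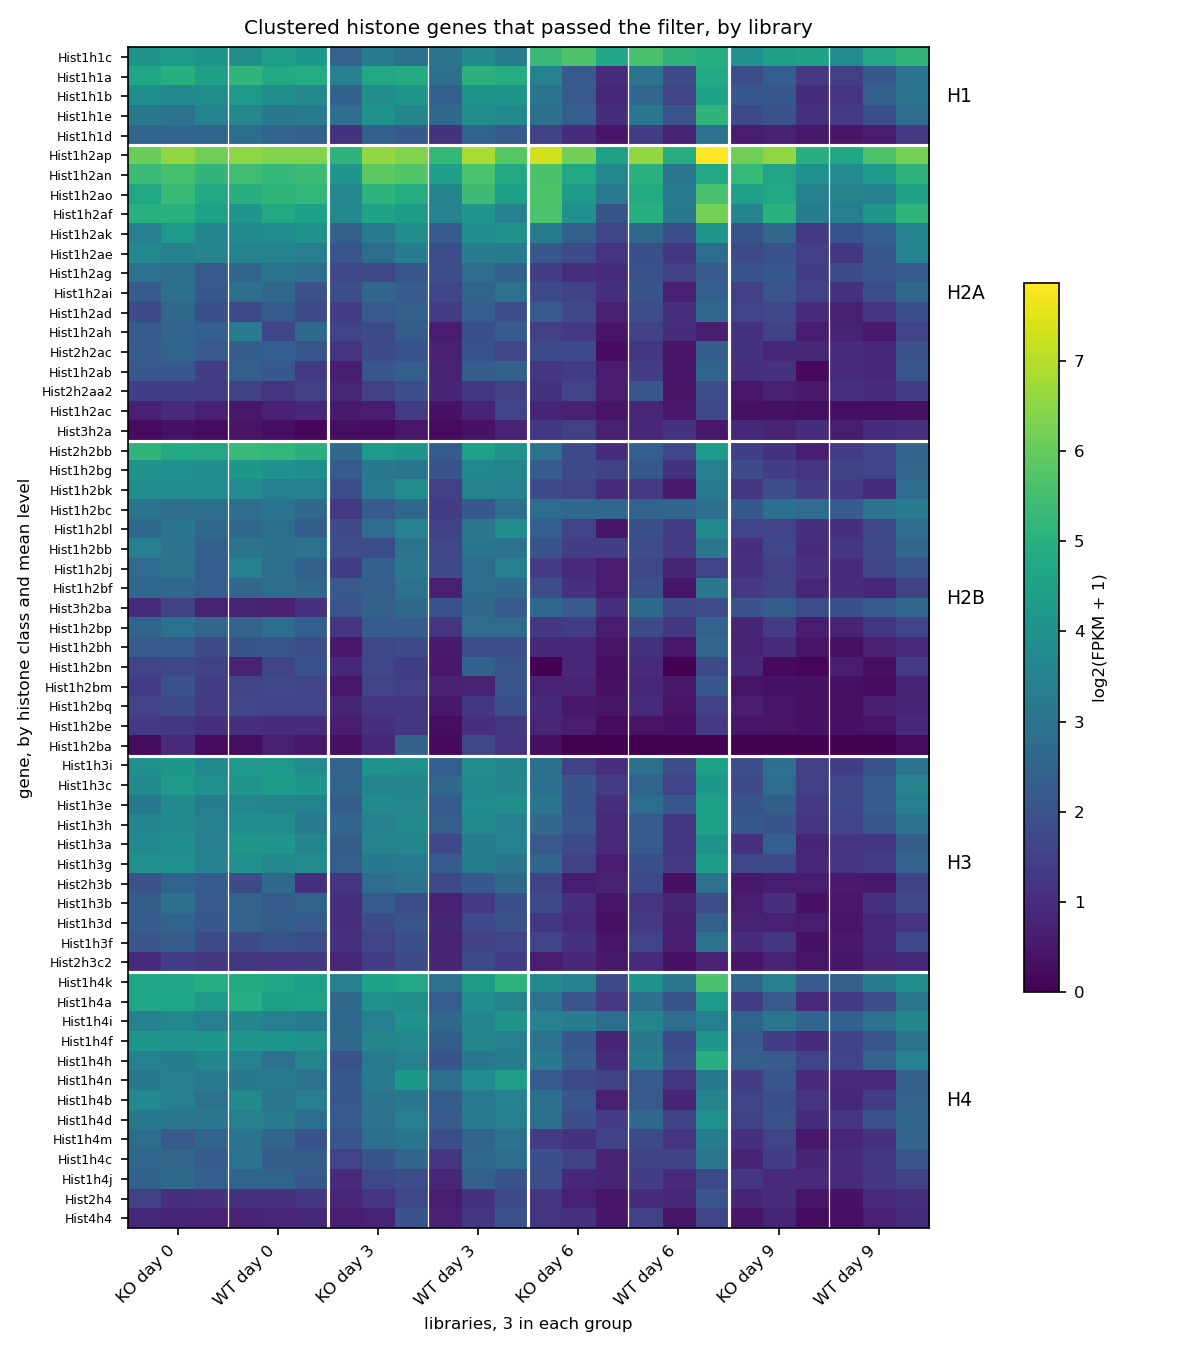
Level of the 60 clustered histone genes that passed the filter on low values, as log2(FPKM + 1), by library (across, 3 in each group) and gene (down, by class and mean level). The H2A gene Hist1h2ap is the brightest on average at 77.3 FPKM, most genes are darker at day 9 than at day 0, and Hist1h1c is brighter at day 6 than at day 0 in every library.

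H2A genes made up 42.6% of the summed level of the 67 genes averaged over all libraries, followed by H4 at 18.3%, H2B at 13.8%, H3 at 12.8% and H1 at 12.6%. The values are FPKM (fragments per kilobase of transcript, scaled by library, as deposited), so levels of different genes are compared per length. Hist1h2ap was the most abundant member at a mean of 77.3 FPKM over the 24 libraries, ahead of Hist1h2an at 31.5, Hist1h2ao at 24.8 and Hist1h1c at 20.9 FPKM. In the other classes the highest means were 16.8 FPKM for Hist1h4k, 13.3 FPKM for Hist2h2bb and 9.11 FPKM for Hist1h3i. At the other end, 7 genes did not reach 1 FPKM in at least 3 libraries and were not tested, namely Hist1h1t, Hist1h2aa, Hist1h2br, Hist2h2aa1, Hist2h2ab, Hist2h2be and Hist2h3c1. Hist2h3c1 is listed at 0 in all 24 libraries, and together these 7 held 0.330% of the summed level. The other 60 comprised 5 H1, 15 H2A, 16 H2B, 11 H3 and 13 H4 genes, and the filter admitted a gene if 1 group alone was high. Hist3h2a reached 1 FPKM in 5 libraries and Hist1h2ac and Hist1h2ba in 3 each, just inside that limit.

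No clustered histone gene passed the test between KO and WT cells at any day. In limma fits with Benjamini-Hochberg adjustment over 15159 genes, 0 of the 60 tested members passed in either direction at days 0, 3, 6 and 9. At an unadjusted p under 0.05 the counts were 0, 0, 2 and 0, against 1.11%, 0.798%, 10% and 5.2% of all genes (the 2 at day 6 are 3.33% of the members), and limma-voom on the recovered reads called 0 at each day. Over all genes the shares called higher were 0.0066%, 0%, 0.231% and 0.468% at days 0, 3, 6 and 9, and the shares called lower were 0.0066%, 0.0132%, 0.495% and 0.495%, so a count of 0 among 60 is near the background. The 2 genes of day 6, named after their values were seen, were Hist1h2ag (log2 fold change -0.73 ± 0.26, SE, adjusted p = 0.316) and Hist1h1e (-1.33 ± 0.58, adjusted p = 0.449). Standard errors of the 60 differences lay between 0.20 and 0.73 on the log2 scale, and neither of these 2 differences, each over 2 times its SE, passed with 3 libraries a group. The fit shares an estimate of each gene's spread over all 8 groups. A gene's SE is therefore the same at every day and is not the spread of the compared libraries alone.

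Day 0 was the tightest comparison by the spread of its libraries, though its tests used the same SEs as the other days. The 67 genes summed to 608, 695 and 557 FPKM in the KO libraries, against 689, 641 and 593 FPKM in the WT libraries, and the ranges overlapped. The median difference over the 60 tested genes was -0.01, and the members lay between -0.27 (Hist2h2bb) and 0.39 (Hist1h2af, another H2A gene). By day 6 the libraries of a genotype had spread far apart, with 553, 307 and 125 FPKM in KO and 424, 171 and 955 FPKM in WT libraries. The rRNA-type genes spread with them. They summed to 471676, 239969 and 129990 FPKM in those KO libraries, and to 447745, 235107 and 1728520 FPKM in the WT libraries, in the same order of libraries. The median member difference at day 6 was -0.49, and without WT day 6 replicate 3 it was -0.05.

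The mean rRNA-type sum was lower in KO than in WT libraries at each day, with overlapping ranges. It averaged 512261 ± 13770 FPKM in KO and 623975 ± 154559 FPKM in WT libraries at day 0, and 463834 ± 161432 and 641820 ± 288399 FPKM at day 3 (SD, n = 3 each). At day 6 it averaged 280545 ± 174419 FPKM in KO and 803791 ± 807865 FPKM in WT libraries, and at day 9 164602 ± 64628 and 188194 ± 103595 FPKM. The two-sided exact permutation test gave p = 0.4, 0.4, 0.5 and 0.8 at days 0, 3, 6 and 9, and 0.667, 0.667, 0.667 and 0.8 after Benjamini-Hochberg adjustment over the 4 days. With 3 libraries against 3 it cannot go below 0.1, so these values do not show that the genotypes were alike. When the rRNA-type level entered the limma fit as a covariate, still 0 members passed between KO and WT at any day, while over all genes the shares higher were 0.0132%, 0%, 0.139% and 0.732% and the shares lower 0.0066%, 0.0132%, 0.29% and 0.686% at days 0, 3, 6 and 9. The median member difference at day 6 was then 0.28 in place of -0.49, so its direction rested on how the rRNA-type level was treated. At an unadjusted p under 0.05, 1 member was higher in KO cells with the covariate at day 0, 14 were higher and 1 lower at day 3, 10 were higher at day 6 and 9 were lower at day 9. These are 1.67%, 25%, 16.7% and 15% of the 60 members, against 1.64%, 1.41%, 7.16% and 7.82% of all genes. The direction at day 9 was thus opposite to that at days 3 and 6, and none of these members passed after adjustment.

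Markers of other cell types differed between the genotypes at days 6 and 9. At day 6, KO cells had higher levels of 4 of the 5 tested primitive erythroid markers (limma). Of 6 endothelial markers 1 was higher in KO cells at day 6 and 4 at day 9, and of 5 cardiac muscle markers 4 were higher at day 9. Their part in the histone values was not tested.

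Over the time course most clustered histone genes were lower on day 9 than on day 0 in both genotypes. The sum of the 67 genes averaged 620 ± 69.5, 471 ± 210, 328 ± 215 and 242 ± 90.1 FPKM in KO cells at days 0, 3, 6 and 9, and 641 ± 48.0, 471 ± 224, 517 ± 400 and 276 ± 156 FPKM in WT cells (SD, n = 3 each). Each day 9 library, at 252, 326 and 147 FPKM in KO and 141, 238 and 447 FPKM in WT, lay below every day 0 library of its genotype. Rescaled to TPM, the KO days still did not overlap, with 414 to 604 at day 9 against 680 to 865 at day 0, whereas the WT days overlapped, with 439 to 702 against 618 to 777. The mean log2 difference of the sum was -1.43 in KO and -1.37 in WT cells in FPKM, and -0.52 and -0.37 in TPM. Day 3 ranged from 230 to 613 FPKM in KO and from 217 to 641 FPKM in WT libraries, replicate 1 being the low library in both genotypes, and overlapped day 0 in each. In KO cells 42 of the 60 tested genes fell and 2 rose by day 9, with a median log2 fold change of -1.42. In WT cells 27 fell and 2 rose, with a median of -1.14. All 27 that fell in WT cells were among the 42 of KO cells. Among all genes, 22.7% fell and 22.4% rose in KO cells and 23.8% fell and 22.2% rose in WT cells, with medians of -0.02 and -0.01. With limma-voom on the recovered reads the members' median was -2.14 in KO cells (43 fell, 2 rose) and -1.62 in WT cells (34 fell, 2 rose). The medians of all genes were then -0.03 and -0.01. The difference of the day 9 changes between the genotypes (an interaction) was called by limma for 0 members, against 0.125% and 0.139% of all genes in the 2 directions. At an unadjusted p under 0.05 there were 0 members, against 3.06% of all genes. With the rRNA-type level as a covariate there were 7 (11.7%), all more negative in KO cells, against 4.24% of all genes. None of them passed after adjustment, so the larger KO count is not a shown difference. Whether fewer cells expressed these genes or each cell held less RNA of them cannot be told apart in bulk samples. Markers of other cell types moved over the same days. The 7 fibroblast markers summed to 207 to 535 FPKM in KO and 236 to 280 FPKM in WT libraries at day 9, against 2.79 to 3.85 and 5.31 to 6.41 FPKM at day 0, with 6 rising and 1 falling in each genotype. The 5 cardiac muscle markers summed to 283 to 919 FPKM in KO and 80.1 to 131 FPKM in WT libraries at day 9, against 13.6 to 18.6 and 15.4 to 21.6 FPKM at day 0, and all 5 rose in both. Of 5 tested erythroid markers 4 rose and 0 fell in both genotypes, and of 6 endothelial markers 5 rose and 1 fell in KO and 4 rose and 1 fell in WT cells. None of the fibroblast, cardiac muscle and endothelial markers was at 0 in a day 9 library, and at day 0 Dcn, Lum, Postn, Nppa and Emcn were at 0 in at least 1 library. Their part in the histone changes was not tested.

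Earlier days held fewer changes. At day 3, 3 members fell and 1 rose in KO cells, and 1 fell and 1 rose in WT cells, against 16.2% falling and 11.9% rising among all genes in KO and 14.5% and 11.4% in WT cells. At day 6, 32 members fell and 3 rose in KO cells (22.3% and 21.4% of all genes), and 14 fell and 3 rose in WT cells (25.2% and 22.5%). The WT count at day 6 depended on single libraries. Without WT day 6 replicate 3, the library set apart, 30 fell and 3 rose, and without any 1 of the other WT day 0 or day 6 libraries 4 to 9 fell and 1 to 3 rose. All 14 WT genes were among the 32 of KO cells. No member passed the interaction at day 3 or day 6 (0 at an unadjusted p under 0.05 both times), and limma-voom called 0 at all 3 days. The background of adjusted calls was 0.0066% in each direction at day 3, and 0.0198% higher and 0.0924% lower at day 6. With the rRNA-type covariate 1 member had an unadjusted limma p under 0.05 at each of these days (1.67%), against 1.03% and 4.04% of all genes.

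**Figure D2:**
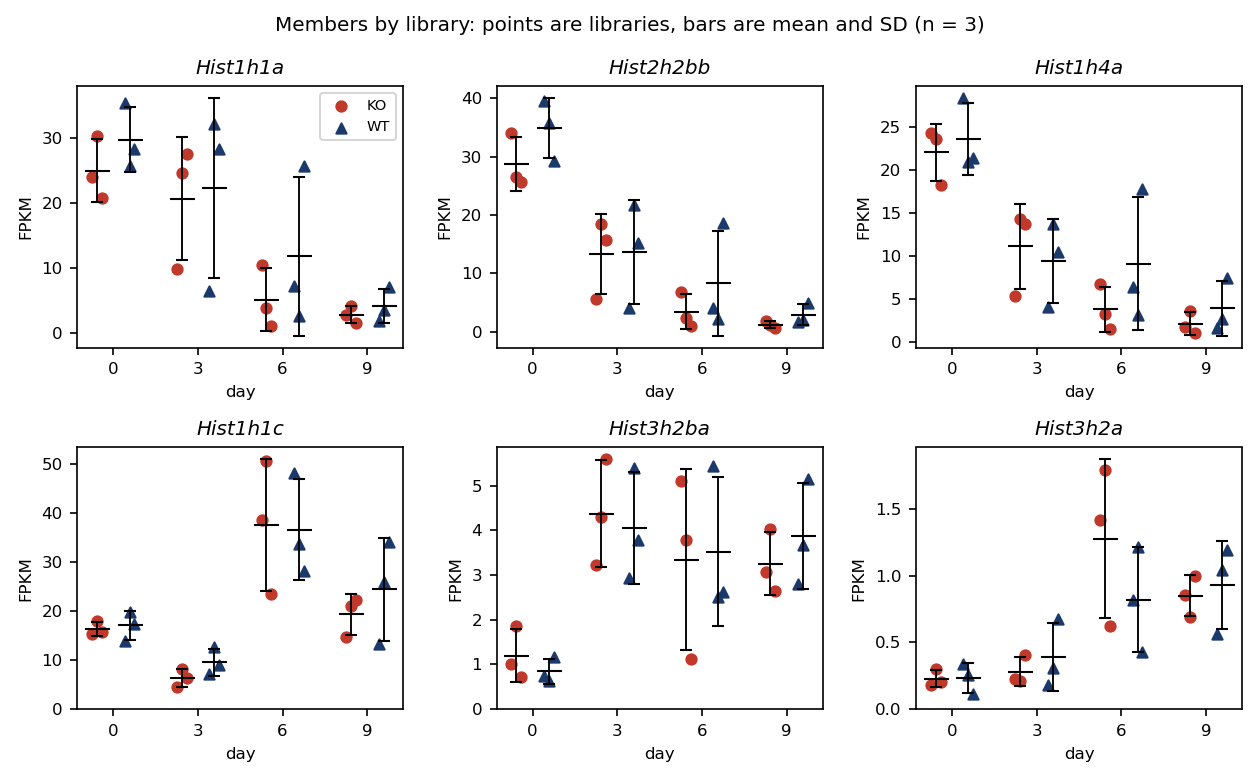
FPKM of 6 clustered histone genes by library, with KO (circles) left of WT (triangles) at each day, and the mean and SD of 3 libraries as bars. Hist1h1a, Hist2h2bb and Hist1h4a are highest at day 0 and lowest at day 9, Hist1h1c is highest at day 6, and Hist3h2ba and Hist3h2a are higher at day 9 than at day 0 in every library.

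The linker histones went different ways. Hist1h1a, a replication-dependent H1 variant, had 2.73, 4.15 and 1.45 FPKM in KO cells at day 9, against 24, 30.2 and 20.7 FPKM at day 0. In WT cells it had 1.82, 3.44 and 6.99 FPKM at day 9, against 35.3, 25.6 and 28.3 FPKM at day 0. The days did not overlap, and the gene fell by 2.83 ± 0.68 in KO cells (SE, log2, adjusted p = 0.00173) and by 2.72 ± 0.68 in WT cells (adjusted p = 0.00238). Hist1h1b, another H1 gene, also fell by day 9, by 2.03 ± 0.66 in KO cells (adjusted p = 0.0166) and by 1.75 ± 0.66 in WT cells (adjusted p = 0.0362). Hist1h1c took another course. It had 4.55, 8.28 and 6.38 FPKM in KO cells at day 3, 38.5, 50.5 and 23.6 FPKM at day 6, and 14.6, 21.1 and 22.3 FPKM at day 9, with 15.3, 17.9 and 15.8 FPKM at day 0. In WT cells it had 7.20, 12.6 and 8.93 FPKM at day 3, 48.2, 33.6 and 28.1 FPKM at day 6 and 13.3, 26.0 and 34.1 FPKM at day 9, with 13.9, 19.9 and 17.4 FPKM at day 0. Every day 3 library was below and every day 6 library above the day 0 libraries of its genotype, while day 9 overlapped day 0. It fell at day 3 in KO cells, by 1.26 ± 0.31 (adjusted p = 0.00471), and had a change of -0.79 ± 0.31 in WT cells (adjusted p = 0.0705). It rose at day 6 by 1.09 ± 0.31 in KO and 1.04 ± 0.31 in WT cells (adjusted p = 0.0078 and 0.0103). Without KO day 6 replicate 2 the limma adjusted p of the KO rise was 0.057, without WT day 6 replicate 1 that of the WT rise was 0.062, and under TPM the day 3 fall in KO and the day 6 rise in WT cells did not pass (0.112 and 0.124).

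Among H2B genes, Hist2h2bb (chr3:96269752-96270132, a single-exon model of the coding sequence) had the largest fall of all members by day 9. It had 1.77, 1.15 and 0.582 FPKM in KO cells at day 9, against 34.1, 26.5 and 25.6 FPKM at day 0, a fall by 3.80 ± 0.61 (adjusted p = 3.13e-05). In WT cells it had 1.65, 2.10 and 4.95 FPKM at day 9, against 39.5, 35.8 and 29.3 FPKM at day 0, a fall by 3.28 ± 0.61 (adjusted p = 0.000161). The days were far apart in both genotypes. Hist1h2bg and Hist1h2bk also fell by day 9, by 2.47 ± 0.45 and 2.32 ± 0.60 in KO and by 2.12 ± 0.45 and 1.82 ± 0.60 in WT cells, each with an adjusted p of at most 0.0173. Hist3h2ba, of the chromosome 11 cluster, rose instead. In KO cells it had 3.22, 4.29 and 5.60 FPKM at day 3, 5.11, 3.79 and 1.13 FPKM at day 6 and 3.07, 4.03 and 2.65 FPKM at day 9, with 1.01, 1.85 and 0.707 FPKM at day 0. In WT cells the values were 2.94, 5.41 and 3.78 FPKM at day 3, 5.44, 2.51 and 2.61 FPKM at day 6 and 2.80, 3.66 and 5.15 FPKM at day 9, with 0.735, 0.638 and 1.17 FPKM at day 0. Days 3 and 9 did not overlap day 0 in either genotype, and KO day 6 did. It was the member that rose at every later day in both genotypes, by 0.98 ± 0.33 in KO and 1.38 ± 0.33 in WT cells at day 9 (adjusted p = 0.0194 and 0.00163). Its KO rise at day 9 did not pass in limma without KO day 0 replicate 1, the unnumbered KO day 0 library or KO day 9 replicate 2 (adjusted p of 0.057 to 0.089), nor at day 6 without either of those day 0 libraries or KO day 6 replicate 1 or 2 (0.087 to 0.187).

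In the H2A class the 3 most abundant genes did not pass by day 9. Hist1h2ap had 70.0, 92.6 and 29.3 FPKM in KO cells at day 9, against 66.2, 95.6 and 70.8 FPKM at day 0, and 23.7, 49.6 and 74.4 FPKM in WT cells at day 9, against 90.4, 82.3 and 81.4 FPKM at day 0. Its log2 fold changes were -0.40 ± 0.69 in KO (adjusted p = 0.671) and -0.91 ± 0.69 in WT cells (adjusted p = 0.302). It spanned 28.7 to 232 FPKM within WT day 6 and 21.5 to 160 FPKM within KO day 6, a spread larger than any change of day. Hist1h2an and Hist1h2ao had day 9 changes of -0.77 ± 0.54 and -0.70 ± 0.61 in KO cells and of -0.94 ± 0.54 and -1.27 ± 0.61 in WT cells, none passing (adjusted p of at least 0.0965). Hist3h2a, the H2A neighbour of Hist3h2ba, was low throughout and rose. It had 0.859, 0.691 and 0.999 FPKM in KO cells at day 9, against 0.181, 0.298 and 0.202 FPKM at day 0, and 0.560, 1.05 and 1.19 FPKM in WT cells at day 9, against 0.336, 0.256 and 0.111 FPKM at day 0. The rise was 0.59 ± 0.20 in KO and 0.64 ± 0.20 in WT cells (adjusted p = 0.0179 and 0.011) on the log2(FPKM + 1) scale, which understates changes at such low levels. Hist3h2a reached 1 FPKM in 5 libraries, none of them of day 0. It thus entered the test only through later days, where it was high, and its p-values are not independent of that filter. The limma adjusted p was 0.053 in KO cells without KO day 0 replicate 1 and 0.065 without KO day 9 replicate 3, and 0.055 in WT cells without WT day 9 replicate 3.

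Genes of H3 and H4 fell or did not pass. Hist1h3c and Hist1h3i fell by day 9 by 1.96 ± 0.55 and 1.89 ± 0.61 in KO and by 1.69 ± 0.55 and 1.93 ± 0.61 in WT cells (adjusted p of at most 0.0157). Hist1h3e fell in KO cells by 1.53 ± 0.58 (adjusted p = 0.0355) and had a change of -1.13 ± 0.58 in WT cells (adjusted p = 0.119). Hist1h3b was the 1 member that fell by day 3 in WT cells, by 1.09 ± 0.38 (adjusted p = 0.0384), with 0.638, 1.53 and 2.81 FPKM at day 3 against 4.66, 3.67 and 4.76 FPKM at day 0. That fall did not pass without any 1 of the WT libraries of days 0 and 3 except WT day 3 replicate 3 (limma adjusted p of 0.056 to 0.197). Hist1h4a had 1.75, 3.57 and 0.960 FPKM in KO cells at day 9, against 24.4, 23.6 and 18.3 FPKM at day 0, and 1.54, 2.59 and 7.49 FPKM in WT cells at day 9, against 28.5, 20.9 and 21.4 FPKM at day 0. It fell by 2.98 ± 0.55 in KO (adjusted p = 0.00014) and by 2.52 ± 0.55 in WT cells (adjusted p = 0.000739). Hist1h4j fell by day 3 in KO cells, by 0.98 ± 0.34 (adjusted p = 0.0347), and did not pass without any 1 of the KO day 0 libraries or KO day 3 replicate 1 (limma adjusted p of 0.057 to 0.177). Hist1h4k fell by day 9 in KO cells by 1.97 ± 0.61 (adjusted p = 0.0114) and had a change of -1.41 ± 0.61 in WT cells (adjusted p = 0.0636). Hist1h4i had 4.82 to 7.56 FPKM in KO and 4.45 to 11.2 FPKM in WT cells at day 9, against 9.25 to 11.8 and 8.55 to 11.3 FPKM at day 0, and did not pass in either genotype.

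The 3 germ-cell members were near the detection limit. Hist1h2ba, the testis H2B, had 0.278, 0.836 and 4.38 FPKM in KO and 0.147, 2.22 and 1.26 FPKM in WT cells at day 3, and 60 reads in all 24 libraries together. Its values at days 6 and 9 were 0 in every library but 1 KO library at day 6 (0.240 FPKM) and 1 WT library at day 9 (0.175 FPKM). Hist1h2aa, the testis H2A, reached 1.88 FPKM in the same KO day 3 library and was listed at 0 in all libraries of days 6 and 9. Hist1h1t, the testis linker histone, was at most 1.09 FPKM. No test was passed by Hist1h2ba, and the other 2 were not tested.

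**Figure D3:**
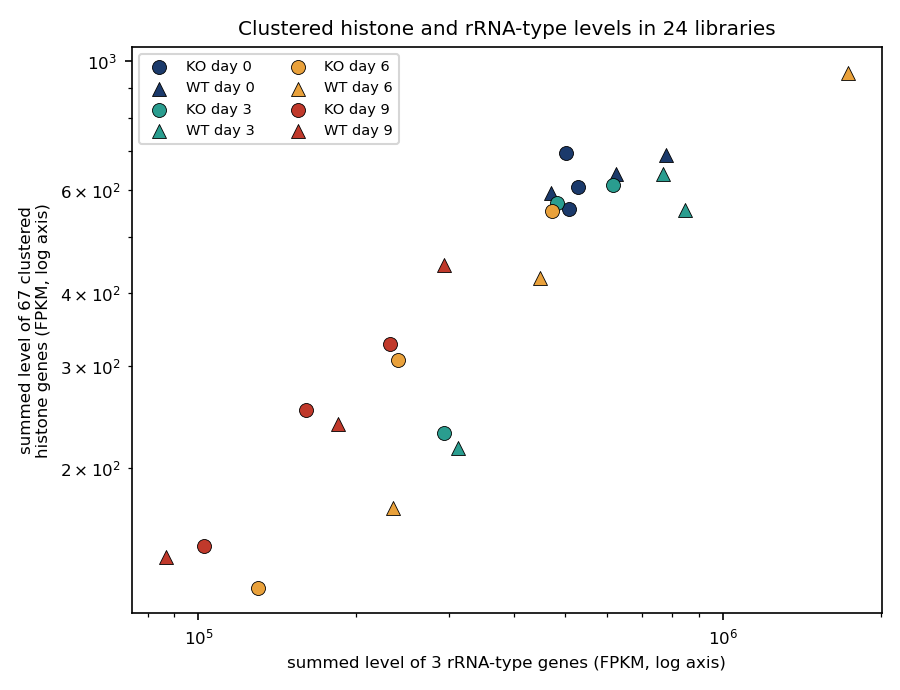
Summed FPKM of the 67 clustered histone genes (vertical log axis) against the summed FPKM of the 3 rRNA-type genes (horizontal log axis) in each of 24 libraries, by day (colour) and genotype (KO circles, WT triangles). Libraries with a higher rRNA-type sum had a higher histone sum, between 125 FPKM in a KO day 6 library and 955 FPKM in a WT day 6 library, and the day 9 libraries lie left of all day 0 libraries.

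The level of the clustered histone genes moved with that of the rRNA-type genes between libraries of the same group. A slope of each gene on the log2 rRNA-type sum was fitted within the 8 groups with limma, which keeps day and genotype out of it. The estimate was positive for 60 of 60 members and passed for 55 of them, with 0 passing negative slopes. Among all genes 26.4% passed with a positive and 22.8% with a negative slope. The median was 0.67 log2 units per doubling of the rRNA-type level for the members and 0.02 for all genes. With values rescaled to TPM 33 members passed with a positive slope and 2, Hist1h1c and Hist3h2a, with a negative one. TPM also moved the median slope of all genes to -0.45, with 0.24 for the members. With limma-voom on the recovered reads the medians were 1.01 and 0.04, and 58 members passed with a positive and 0 with a negative slope. The size of the slope thus depended on the scale, and log2(FPKM + 1) understates changes at low levels. Hist1h1a and Hist1h1b had the steepest slopes, at 1.09 ± 0.08 and 1.09 ± 0.07, followed by Hist1h2ap at 1.05 ± 0.12 (SE, adjusted p of at most 4.77e-06). Taken day by day as a description, the slope was positive for 42, 60, 59 and 60 of the 60 members at days 0, 3, 6 and 9, and for 51.0% to 53.6% of all genes. Day 0 was also the day on which the rRNA-type level varied least within groups, with an SD of 0.26 log2 units against 0.68 to 1.23 on the later days.

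On the log2(FPKM + 1) scale, the 5 members whose slope did not pass included all 3 that rose at a later day. With limma-voom on the recovered reads 58 members passed with a positive slope, so this set depended on the scale. Hist3h2a had a slope of 0.04 ± 0.07 (adjusted p = 0.679), Hist1h1c one of 0.17 ± 0.11 (adjusted p = 0.227) and Hist3h2ba one of 0.26 ± 0.11 (adjusted p = 0.062), and each has a poly(A) signal at its annotated end. The other 2 were Hist1h2ba at 0.24 ± 0.13 (adjusted p = 0.139) and Hist1h2ah at 0.31 ± 0.15 (adjusted p = 0.0883). By annotated end, the median slope was 0.67 for the 31 tested genes with a stem-loop and no poly(A) signal, of which 31 passed. It was 0.44 for the 13 with a poly(A) signal, of which 10 passed, and 0.91 for the 16 with neither, of which 14 passed. The ranges overlapped, from 0.22 to 1.05, from 0.04 to 0.99 and from 0.24 to 1.09, and no test between the 3 sets was made.

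**Figure D4:**
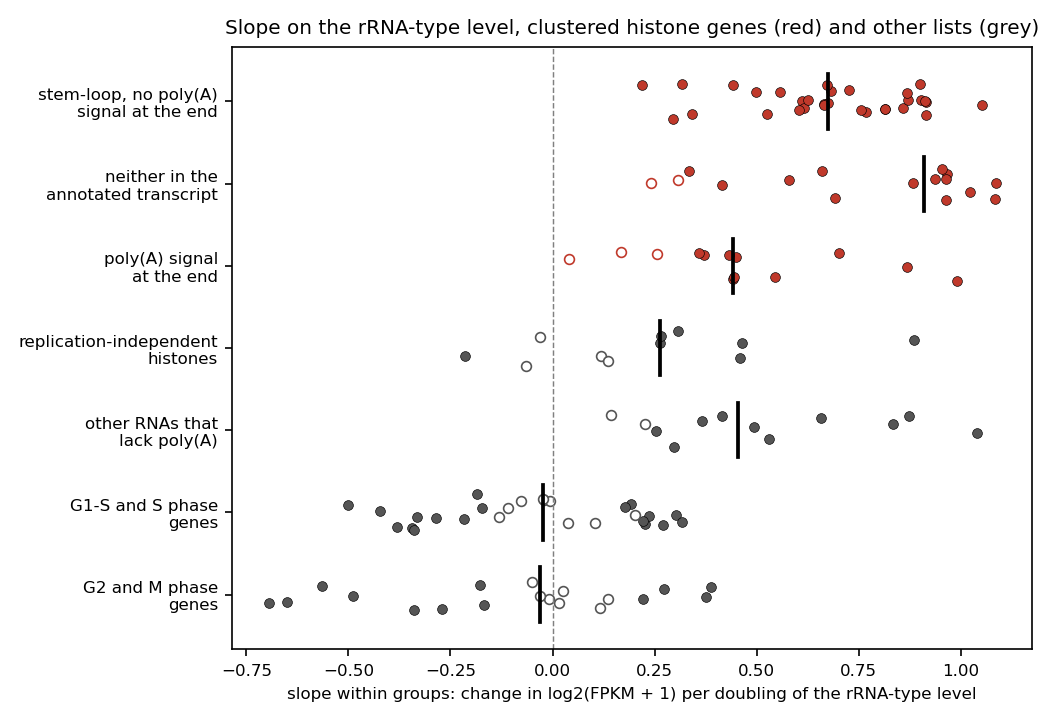
Slope of each gene on the rRNA-type level within groups (horizontal axis, change in log2(FPKM + 1) per doubling), for clustered histone genes by annotated transcript end (red) and for other gene lists (grey). Filled points passed the limma test, open points did not, and black bars are medians, which lie at 0.67, 0.91 and 0.44 for the 3 red sets, 0.26 for replication-independent histones and near 0 for the cell cycle lists.

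Other RNAs without poly(A) had slopes in the same direction. Of 12 tested small nuclear, small Cajal body and similar RNAs, 10 had a passing positive slope and 0 a negative one, with a median of 0.45. Scarna2, a small Cajal body RNA, had a slope of 1.04 ± 0.07, and Rn7sk, the 7SK RNA that holds back transcription elongation, one of 0.87 ± 0.08. Among 11 replication-independent histone genes 6 had positive and 1 a negative passing slope, with a median of 0.26. The list of 27 G1-S and S phase genes had 8 positive and 10 negative passing slopes and a median of -0.02. Among all genes 26.4% passed with a positive and 22.8% with a negative slope, and the 8 positive ones are near that share. Of the 10 negative ones, Ccne2, a cyclin of S phase entry, had a slope of -0.50 ± 0.11. Mcm4, a subunit of the replicative helicase, had one of -0.42 ± 0.07.

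Day and rRNA-type level were tied together at day 9 in both genotypes, and at day 6 in KO cells. The rRNA-type sum lay between 102277 and 231310 FPKM in KO and between 86616 and 293695 FPKM in WT libraries at day 9, below every day 0 library (501254 to 527702 FPKM in KO and 469394 to 778512 FPKM in WT libraries). Per 1000 FPKM of rRNA-type level, the clustered histone genes had 1.41 to 1.57 FPKM in KO and 1.29 to 1.63 FPKM in WT libraries at day 9, against 1.10 to 1.39 and 0.885 to 1.26 FPKM at day 0. This ratio was thus higher at day 9 than at day 0 in every library of both genotypes, while the level itself was lower. A lower level of these genes at day 9 and a lower passage of RNA without poly(A) cannot be told apart there. The same holds for KO cells at day 6, where the rRNA-type sum was 129990 to 471676 FPKM, below every KO day 0 library, and where 32 members fell.

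At day 3 in both genotypes the rRNA-type range overlapped that of day 0. At day 6 in WT cells it did so only through replicate 3, the library set apart, at 1728520 FPKM. WT day 6 replicates 1 and 2, at 447745 and 235107 FPKM, lay below every WT day 0 library (469394 to 778512 FPKM), as in KO cells. The ratio per 1000 FPKM was 0.784 to 1.18 FPKM in KO and 0.655 to 0.836 FPKM in WT libraries at day 3, and 0.960 to 1.28 and 0.553 to 0.947 FPKM at day 6. With the rRNA-type level as a covariate in limma, 15 members fell and 1 rose at day 3 in KO cells, and 18 fell and 1 rose in WT cells. The background was then 20.5% falling and 16.2% rising in KO and 19.6% and 15.4% in WT cells. At day 6 the counts were 24 falling and 4 rising in KO cells (26.7% and 27.7% of all genes), and 33 falling and 3 rising in WT cells (29.9% and 27.9%). Where the rRNA-type levels do not overlap day 0, adjusted counts rest on extending the slope between them. This holds for KO cells at day 6 and for both genotypes at day 9. Median changes with the covariate were -0.28 and -0.48 in KO cells at days 3 and 6, and -0.38 and -0.57 in WT cells.

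**Figure D5:**
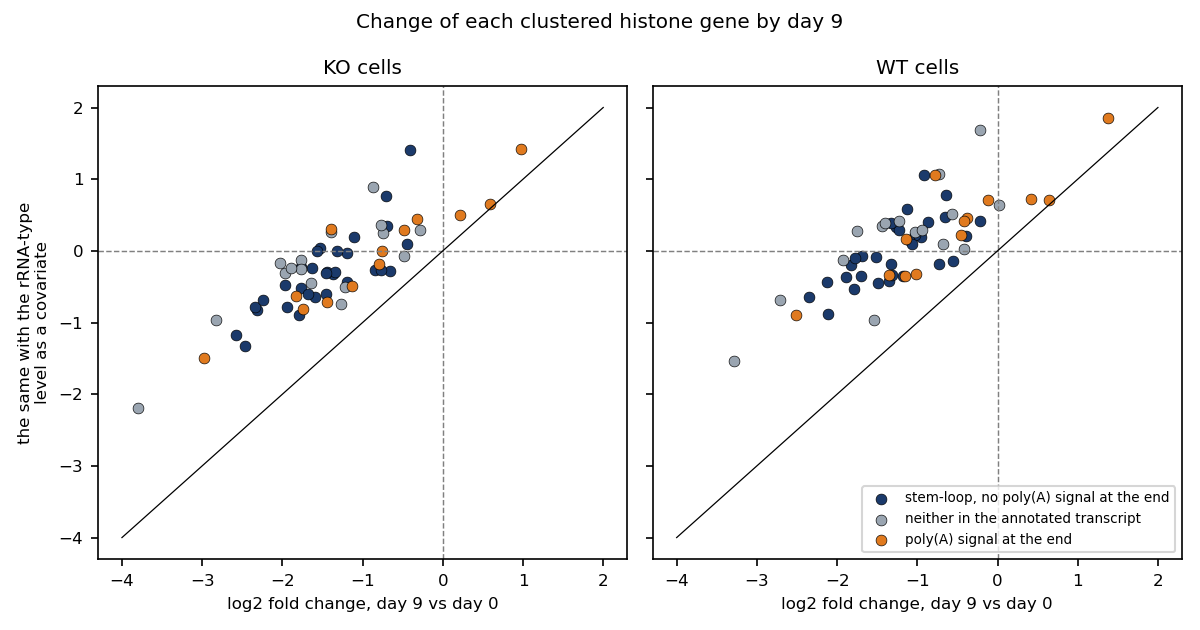
Log2 fold change of each of the 60 tested clustered histone genes at day 9 against day 0 (horizontal axis) and the same with the rRNA-type level as a covariate (vertical axis), in KO (left) and WT cells (right), coloured by annotated transcript end. Points lie above the diagonal, with medians of -1.42 in KO and -1.14 in WT cells without the covariate, and of -0.27 and 0.18 with it.

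At day 9 fewer falls passed with the covariate. In KO cells 12 members fell and 3 rose with it, all 12 from among the 42, against 26.3% falling and 27.2% rising among all genes. In WT cells 4 fell and 7 rose, all 4 from among the 27, against 26.8% and 27.5%. The 4 that fell in WT cells were Hist2h2bb, Hist1h4a, Hist1h2bg and Hist1h1a, and they were among the 12 of KO cells. Hist2h2bb had a change of -2.20 ± 0.31 in KO and -1.53 ± 0.32 in WT cells (adjusted p = 8.14e-06 and 0.000513), and Hist1h4a one of -1.49 ± 0.23 and -0.90 ± 0.23 (adjusted p = 1.93e-05 and 0.00326). Hist1h2ap turned to a rise, by 1.40 ± 0.37 in KO and 1.06 ± 0.38 in WT cells (adjusted p = 0.00325 and 0.0234). Hist3h2ba and Hist3h2a rose with and without the covariate in both genotypes.

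Genes of the wider histone supply pathway were read from lists. Of 27 G1-S and S phase genes, 18 fell and 0 rose by day 9 in KO cells, and 17 fell and 0 rose in WT cells, against 22.7% of all genes falling in KO and 23.8% in WT cells. Ccne1, the cyclin of S phase entry, fell by 2.62 ± 0.28 in KO and 2.52 ± 0.28 in WT cells, and Uhrf1, which maintains DNA methylation behind the replication fork, by 2.14 ± 0.27 and 2.55 ± 0.27. Mcm5, a helicase subunit, fell by 1.97 ± 0.23 and 2.40 ± 0.23. With the covariate 20 of the 27 fell and 0 rose in KO cells, and 21 fell and 1 rose in WT cells. The G2 and M phase list had 8 of 19 falling and 0 rising in KO cells and 8 falling and 1 rising in WT cells. Messages of both lists carry poly(A) tails.

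Of 18 genes for histone transcription and end processing, 4 fell and 0 rose in KO cells and 3 fell and 0 rose in WT cells by day 9, which is near the background. Zfp473, a zinc finger protein of the U7 processing complex, fell by 1.19 ± 0.16 in KO and 0.99 ± 0.16 in WT cells, and Srrt, a cap-complex partner, by 1.20 ± 0.24 and 1.26 ± 0.24. Slbp, the stem-loop-binding protein gene, had changes of -0.52 ± 0.33 in KO and -0.62 ± 0.33 in WT cells (adjusted p = 0.214 and 0.13). In the histone mRNA decay list of 15 tested genes 6 fell and 1 rose in KO cells, and 6 fell and 0 rose in WT cells. Among all genes 22.7% fell and 22.4% rose in KO cells, and 23.8% fell and 22.2% rose in WT cells. Among 22 histone chaperones 6 fell and 2 rose in KO cells and 7 fell and 2 rose in WT cells, which is near the shares of all genes that fell (22.7% in KO and 23.8% in WT cells). Asf1b, which hands H3 and H4 to the assembly factors, fell by 1.07 ± 0.22 and 1.33 ± 0.22, and Hat1, which acetylates new H4, by 1.40 ± 0.33 and 0.95 ± 0.33. No gene of these lists passed between KO and WT cells at any day.

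Histone genes outside the clusters did not share 1 direction. Of 11 tested, 3 rose and 2 fell by day 9 in each genotype. Among all genes 22.4% rose and 22.7% fell in KO cells, and 22.2% and 23.8% in WT cells, so these counts are near the background. H1f0, the linker histone of differentiated cells, had 102, 109 and 95.0 FPKM in KO cells at day 9, against 32.2, 55.5 and 44.6 FPKM at day 0, and 55.2, 83.4 and 81.3 FPKM in WT cells at day 9, against 34.6, 35.0 and 39.5 FPKM at day 0. The days did not overlap, and it rose by 1.23 ± 0.24 in KO and 0.97 ± 0.24 in WT cells (adjusted p = 0.000223 and 0.00196). H3f3a and H2afy2, an H3 and a macroH2A gene, rose as well. H2afz, the gene of H2A.Z, fell by 1.21 ± 0.20 and 1.15 ± 0.20, and H2afx, whose product is phosphorylated at DNA breaks, by 1.54 ± 0.41 and 1.39 ± 0.41.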

How the data were processed

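The authors selected poly(A)+ RNA with oligo(dT) and sequenced NEBNext Ultra II libraries in pairs, per the labels' protocols. Per the submitters' processing notes, HISAT2 2.2.1 and featureCounts 2.0.1 were used with build mm10, beside Trimmomatic 0.39, FastQC 0.11.9, R 4.1.0 and DESeq2 1.30.1. The deposited table holds FPKM, per the file headers, for 53465 genes, whose computation the labels do not describe. Column numbers and sample numbers conflict in KO day 0: the column numbered 3 is the sample labelled replicate 2, the column numbered 2 is named by no sample label, and the sample labelled replicate 3 is named with no column, so the column numbered 2 is used as an unnumbered KO day 0 library. Depth is the sum of reads recovered from FPKM steps with GENCODE vM21 exon lengths, 95.5% to 96.9% of values of at most 50 reads lying within 0.05 of a whole number. Pairs of libraries in a group gave a chi-square of 7.15 to 271 per degree of freedom, so none was a copy of another.

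The 15159 genes that reached 1 FPKM in 3 or more libraries entered the test as log2(FPKM + 1) with limma 3.58.1 in R 4.3.3 over the 8 groups (trend, two-sided, Benjamini-Hochberg, threshold 0.05). Fits were tested on simulated data. Sequences come from GENCODE vM21 transcripts and RefSeq promoters. Other steps ran in Python 3.11.15 with scipy 1.17.1, pandas 2.3.3, matplotlib 3.10.9 and numpy 2.4.6. Members, lists and tests were chosen with earlier results of these data known. Members were named where among the 3 most abundant of a class, among the 2 largest passing rises or falls of a comparison of days, a germ-cell histone or among the 3 steepest slopes, and list genes where among the 4 largest passing changes. Same-numbered KO and WT libraries deviated together at day 3, with correlations across genes of 0.655, 0.614 and 0.599, and not at the other days. Differently numbered libraries reached 0.676 at day 6 (KO replicate 3 with WT replicate 2) and 0.665 at day 9 (KO replicate 2 with WT replicate 3). Correlations of this size thus do not show by themselves that numbers pair the libraries at day 3. Alternatives were another pseudocount (0.1), no or a stricter filter (FPKM of 5), TPM, sums without rRNA-type genes, the compared groups alone, the rRNA-type covariate, voom, a replicate block and leaving out each library.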

Additional observations from a re-analysis of the deposited data

How the results depend on the processing

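No alternative called a member between KO and WT cells or in an interaction. Of 124 counts of called members under the settings below, leaving out a library aside, 109 were within 1.5 times the reported count and 15 were not. The 109 include every count between KO and WT cells and in the interactions, where 0 stood against 0. The 15 thus all fall among the comparisons of days and the slope. Of 404 refits of single named changes, leaving out a library included, 365 kept their side of the threshold, 39 lost it and 0 reversed. The named changes were the largest passing ones. Of all called day 9 falls, 3 of 42 in KO and 3 of 27 in WT cells had a positive estimate with the rRNA-type covariate, and 0 of these passed as a rise. With the rRNA-type covariate the counts of called members were 16 and 15 at days 3 and 9 in KO cells, and 19, 36 and 11 at days 3, 6 and 9 in WT cells. With the compared groups alone they were 8 in KO and 5 in WT cells at day 3. For WT day 3 the count was 1 with a pseudocount of 0.1, with no filter and with the stricter filter, and 29 for KO day 9 with the stricter filter, which left 39 members. TPM gave 5 members for WT day 3 (1 higher, 4 lower), 28 for WT day 6 (1 and 27) and 35 for the slope (33 positive, 2 negative), and equal sums without rRNA-type genes gave 30 for WT day 6 (2 and 28) and 3 for WT day 3 (1 and 2). TPM moved the median slope of all genes to -0.45, against 0.02 as reported. By day 9 it raised the median change of all genes by 0.70 in KO and 0.78 in WT cells. The members' median lay 1.65 below that of all genes in KO and 1.21 below in WT cells under TPM, against 1.39 and 1.13 as reported, with 34 lower and 3 higher in KO and 17 lower and 4 higher in WT cells. The summed level differed between day 9 and day 0 by -0.52 (KO) and -0.37 (WT) on the log2 scale under TPM, against -1.43 and -1.37 as reported.

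Leaving out each library in turn gave 0 to 0 members between genotypes, 2 to 5, 23 to 41 and 25 to 40 at days 3, 6 and 9 in KO cells, 1 to 5, 6 to 33 and 19 to 38 in WT cells, and 52 to 56 for the slope. The count of KO day 9 was 25 without KO day 9 replicate 3, that of WT day 9 was 19 without WT day 9 replicate 1, and that of KO day 6 was 23 without KO day 0 replicate 1, KO day 0 replicate 2 or KO day 6 replicate 3. WT day 6 gave 33 members without WT day 6 replicate 3 and 6 to 11 members without each of the WT day 0 libraries, WT day 6 replicate 1 or replicate 2. At day 3, KO gave 2 without KO day 0 replicate 1 or replicate 2, and WT gave 1 without WT day 0 replicate 1, WT day 0 replicate 3 or WT day 3 replicate 1 and 5 without WT day 3 replicate 2. The cause was not tested. With the replicate block the counts were 0 between genotypes at every day, day 3 included, where same-numbered libraries deviated together. They were 3, 25 and 32 at days 3, 6 and 9 in KO cells, 2, 15 and 31 in WT cells, and 54 for the slope. Few reads per gene limit the low members.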
